A study of Mus musculus with 8 samples.

Results

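The miR-26 family was followed in small RNA sequencing counts of mouse sperm. Its members were the 3 rows of 387 in the count table whose names begin with mmu-miR-26a or mmu-miR-26b: mmu-miR-26a-5p, mmu-miR-26b-5p and mmu-miR-26a-2-3p, written below without the species prefix. Rows were matched by name, and no threshold on a measured value was applied. The 8 samples came from C57BL/6 mice 2 months old and fell into 2 groups of 4, Exposed and Trained, both from the F0 generation. The study asked about sperm miRNAs after treatments linked to smell; the labels describe the treatments no further, and no untreated group was analysed here. The labels do not say whether a sample was 1 animal, a pool or a repeat library, so the p-values describe sample-to-sample spread that may be partly technical.

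miRNAs are cut from a hairpin precursor as a short duplex. As a rule 1 strand, the guide, is loaded into an Argonaute protein and represses messenger RNAs that match its seed, while the other strand, the passenger, is mostly degraded. In mammals the miR-26 family is broadly expressed in differentiated tissues, and its known targets include Ezh2, the histone methyltransferase of Polycomb repressive complex 2. Its hairpins lie within genes of the small C-terminal domain phosphatases, which act on RNA polymerase II.

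The 3 mature sequences are shown because the paralogue and strand comparisons depend on telling them apart. They are RefSeq sequences, written from 5′ to 3′, with the seed (bases 2 to 8) in capitals.
miR-26a-5p: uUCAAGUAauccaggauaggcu
miR-26b-5p: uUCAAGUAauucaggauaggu
miR-26a-2-3p: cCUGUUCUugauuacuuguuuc

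miR-26a-5p and miR-26b-5p share the seed UCAAGUA and all of their first 10 bases. Counted from 1 at the 5′ end of miR-26a-5p, they differ by C11U and C21U over 21 aligned bases, and miR-26a-5p is 1 base longer (22 against 21). Of the 387 names in the table, 310 matched a RefSeq mature sequence, and 2 of these had the miR-26 seed, the same 2 guides. The passenger strand has an unrelated seed, CUGUUCU, which no other matched name carried.

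The hairpins are shown with both arms in capitals, since miR-26a-5p is the same sequence in Mir26a-1 and Mir26a-2 and its reads cannot be divided between them.
Mir26a-1: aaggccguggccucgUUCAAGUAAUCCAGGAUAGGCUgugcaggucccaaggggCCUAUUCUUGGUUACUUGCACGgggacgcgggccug
Mir26a-2: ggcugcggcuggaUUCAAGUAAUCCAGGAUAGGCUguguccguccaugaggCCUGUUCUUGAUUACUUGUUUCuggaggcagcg
Mir26b: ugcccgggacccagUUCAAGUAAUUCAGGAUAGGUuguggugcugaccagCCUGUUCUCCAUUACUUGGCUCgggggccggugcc

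The 3p arm does tell the loci apart. Over 22 bases, miR-26a-2-3p differs from the 3p arm of Mir26a-1 at 6 positions, including G4A within the seed. It differs from the 3p arm of Mir26b at 4 positions, all outside the seed, the first being U9C. The 3p arms of Mir26a-1 and Mir26b have no row in the count table, so they were not analysed here. In GRCm38.p6, Mir26a-1 lies at chr9:119031796-119031885, Mir26a-2 at chr10:126995530-126995613 and Mir26b at chr1:74394310-74394394, all on the plus strand. In the GENCODE annotation of GRCm38, Mir26a-1 is intronic in Ctdspl and Mir26b is intronic in Ctdsp1. Mir26a-2 lies in an intron of 1 protein-coding transcript of Ctdsp2 and overlaps an exon of 2 others, of which 1 is annotated as a retained intron. The tables name no build, so these positions are those of the genes of the same name.

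The counts assigned to the listed miRNAs were 193013 to 254944 per library in Exposed and 239664 to 261903 in Trained. Levels are given as CPM, the counts scaled to a common library total. Each read of a mature miRNA was counted whole, so levels were not divided by length. The summed reads of 15 male germ cell miRNAs, all of them listed, made up 31.0% to 38.8% of each library. That list was chosen with earlier results of these data known, so the share is a description and no independent check of the sperm label. The most abundant miRNA was miR-34c-5p, a spermatogenic miRNA, at 110702 ± 7087 CPM (SD, n = 8).

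miR-26a-5p, the main guide strand of the family, was among the abundant sperm miRNAs. Its level was 12485, 9344, 10967 and 10010 CPM in Exposed 1 to 4. It was 9614, 11071, 16827 and 10072 CPM in Trained 1 to 4. Trained 3 stood above all other libraries, and the other 3 Trained libraries lay within the range of Exposed. The group means were 10702 ± 1363 CPM in Exposed and 11896 ± 3343 CPM in Trained (SD, n = 4 each). These values rested on 1932 to 4407 reads per library, and the 95% Poisson interval of Trained 3, 16334 to 17331 CPM, covers counting error only. miR-26a-5p ranked from 17th in Trained 3 to 26th in Exposed 2 among the 387 miRNAs, and 22nd by its mean over all libraries. Its neighbours in that order were not separated from it by the spread between libraries: miR-871-3p stood just above at 11317 ± 1050 CPM and was higher in 6 of 8 libraries, and miR-34b-3p stood just below at 10393 ± 764 CPM and was higher in 4 of 8.

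miR-26b-5p, the paralogue from Ctdsp1, was several times less abundant. Its level was 1716, 1379, 1577 and 1684 CPM in Exposed 1 to 4, and 1581, 1511, 2619 and 1727 CPM in Trained 1 to 4. Trained 3 was again the highest library, and the remaining 7 lay between 1379 and 1727 CPM. The group means were 1589 ± 152 CPM in Exposed and 1860 ± 514 CPM in Trained (SD, n = 4 each), from 288 to 686 reads per library. Its rank ran from 63rd in Trained 3 to 75th in Exposed 2. The next above in mean level, miR-19a-3p, was higher in 6 of 8 libraries, and the next below, let-7b-5p, was higher in 3 of 8.

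**Figure D1:**
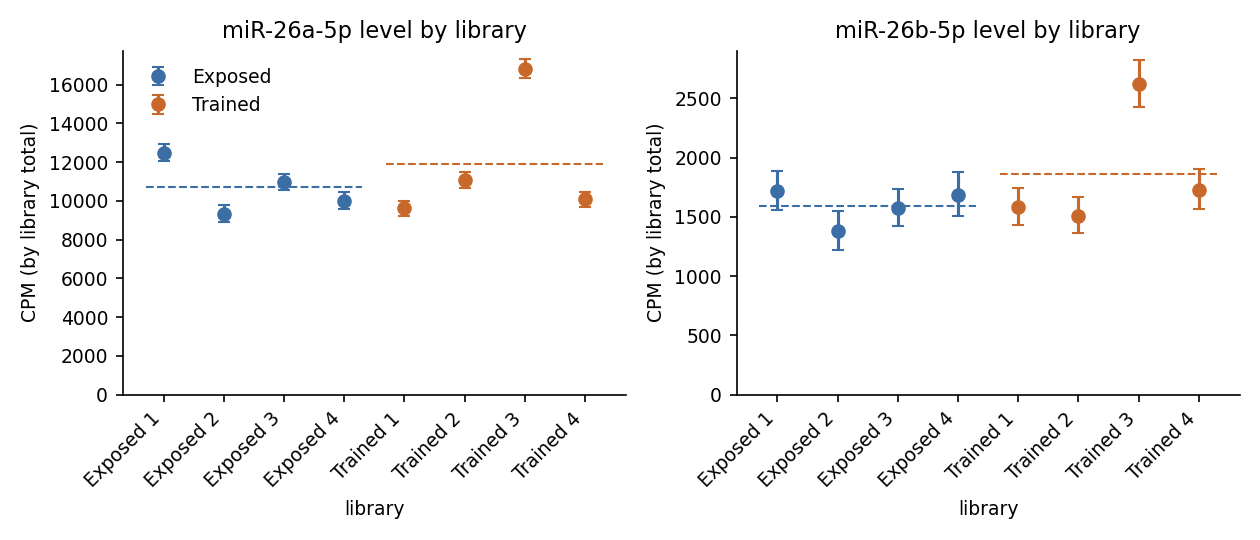
CPM by library total (vertical axes, from 0) of miR-26a-5p and miR-26b-5p in the 8 libraries; bars are 95% Poisson intervals, which cover counting error only, and dashed lines are group means. Trained 3 is the highest library for both miRNAs, at 16827 and 2619 CPM, while the other Trained libraries overlap Exposed.

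The guide strands were then compared between Trained and Exposed. Neither passed the test. At FDR 0.05, edgeR's quasi-likelihood fit called 0 of 226 miRNAs (0%). An unadjusted p under 0.05 was reached by 10 (4.42%). DESeq2 and limma-voom also called 0, with 12 (5.31%) and 9 (3.98%) at an unadjusted p under 0.05. For miR-26a-5p the log2 fold change, Trained over Exposed, was 0.12 (SE 0.19, 95% interval -0.30 to 0.55, FDR = 0.998 by edgeR). For miR-26b-5p it was 0.20 (SE 0.18, 95% interval -0.21 to 0.60, FDR = 0.998 by edgeR). Both fitted values were above 0, as were 51.8% of all tested miRNAs. Leaving out Trained 3 gave -0.066 for miR-26a-5p and 0.012 for miR-26b-5p (FDR = 0.994 by edgeR for both), with 95% intervals of -0.33 to 0.20 and -0.23 to 0.25. Each of these intervals is narrower than with all libraries.

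**Figure D2:**
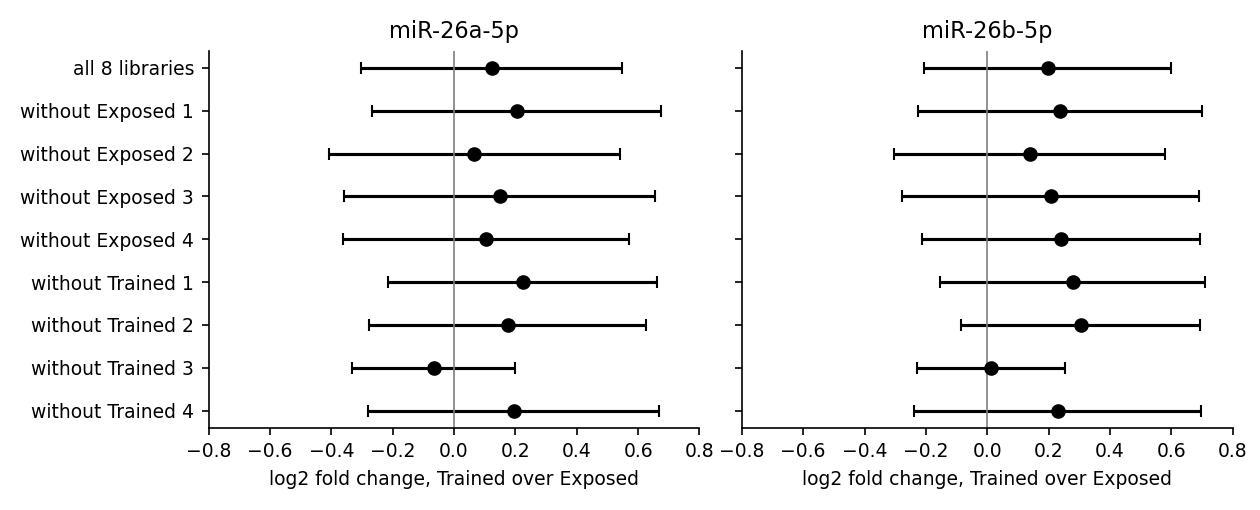
Log2 fold change of Trained over Exposed (horizontal axis) for both guide strands with all 8 libraries and with each library left out; bars are 95% intervals from edgeR's quasi-likelihood test. Every interval includes 0, and leaving out Trained 3 moves the value to -0.066 for miR-26a-5p and 0.012 for miR-26b-5p.

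The family as a whole took a little over 1% of the miRNA reads. It made up 1.42%, 1.07%, 1.25% and 1.17% of reads in Exposed 1 to 4, and 1.12%, 1.26%, 1.95% and 1.18% in Trained 1 to 4. The difference of the group means was 0.13 on the log2 CPM scale (two-sided exact permutation p = 0.629, adjusted 0.629 over 3 comparisons; the smallest p that 4 against 4 allows is 0.0286). Without Trained 3 it was -0.045 (exact permutation p = 0.800).

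Trained 3 also stood apart in markers of other cells. Of 6 red blood cell names, which include alternative names of miR-486, 4 were listed (miR-451a, both arms of miR-144 and miR-486-5p), and none was at 0 in all libraries. Their summed level was 11600 CPM in Trained 3, against 242 to 3075 CPM in the other Trained libraries and 230 to 4134 CPM in Exposed. The leukocyte list, with 5 of 7 names listed, reached 9274 CPM in that library against at most 6082 CPM elsewhere. The summed muscle lists were lowest in Trained 3, but by a small margin. The smooth muscle and stroma list (5 of 7 names listed) stood at 7323 CPM against 7561 to 15491 CPM elsewhere. The striated muscle list (4 of 7 names listed) stood at 1298 CPM against 1339 to 3078 CPM. Its member miR-499-5p went against that sum, at 745 CPM in Trained 3 beside a highest level of 765 CPM. The male germ cell list was also lowest there, at 31.0% of reads against 35.1% to 38.8% in the other 7 libraries. In bulk samples fewer cells of a type and less RNA per cell cannot be told apart. The part of other cells in the miR-26 levels was not tested. With red blood cell miRNAs taken out of the library totals, the difference in the summed miR-26 level was 0.14 (log2). These miRNAs made up 0.0230% to 1.16% of reads, so this step could change little. It also leaves any miR-26 reads of other cells in place.

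The paralogues kept to a ratio of about 6 to 7 reads in every library. There were 7.28, 6.78, 6.96 and 5.94 reads of miR-26a-5p for each read of miR-26b-5p in Exposed 1 to 4. The ratio was 6.08, 7.32, 6.42 and 5.83 in Trained 1 to 4. The groups overlapped, and Trained 3 was an inner value. Exposed and Trained means were 6.74 ± 0.57 and 6.42 ± 0.65 (SD, n = 4 each), a difference of -0.072 in the log2 ratio (two-sided exact permutation p = 0.457, adjusted 0.629 over 3 comparisons). The highest ratio was 1.26 times the lowest, while the summed level differed 1.81-fold between libraries. That contrast rested on Trained 3. Without it the ratio still spanned 1.26-fold, against 1.32-fold for the summed level, 1.34-fold for miR-26a-5p and 1.25-fold for miR-26b-5p. Pooled over libraries, miR-26a-5p held 86.8% of the reads of both guides. The split between the paralogues varied by more than counting noise alone, with a chi-square of 2.78 per degree of freedom. A ratio of reads is not a ratio of molecules, since the efficiency of cloning small RNAs differs between sequences.

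**Figure D3:**
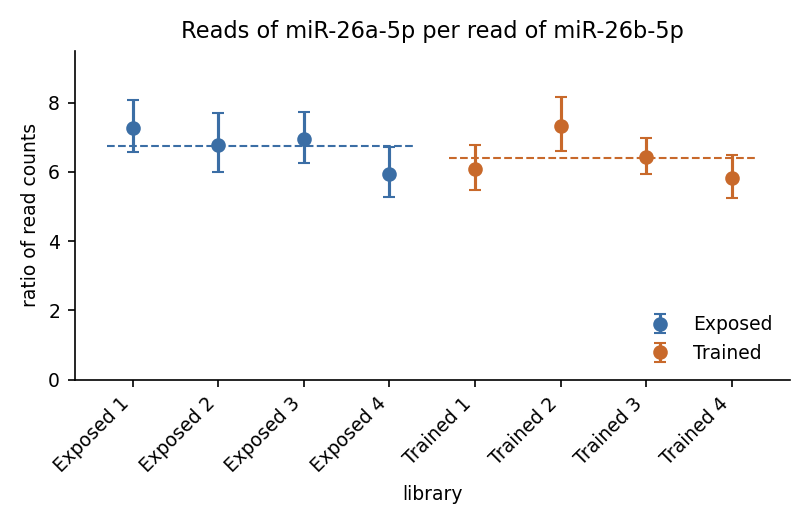
Reads of miR-26a-5p per read of miR-26b-5p (vertical axis, from 0) in each library; bars are exact 95% binomial intervals and dashed lines are group means. The ratio lies between 5.83 and 7.32 in all libraries, and Trained 3, at 6.42, is not set apart.

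Across the 8 libraries the levels of the paralogues had a Pearson r of 0.89 (exact permutation p = 0.0194) and a Spearman rho of 0.55 (exact permutation p = 0.171) on the log2 CPM scale. This relation rested on Trained 3. Without Trained 3 and Exposed 1, the libraries farthest from the median of miR-26a-5p, r was 0.21 (n = 6, exact permutation p = 0.704), and without Trained 3 alone it was 0.44 (n = 7, exact permutation p = 0.341). Without Exposed 1 (r = 0.91, exact permutation p = 0.0518) or Exposed 2 (r = 0.87, exact permutation p = 0.0665) r stayed near 0.89, but the call was lost.

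The spread of the ratio was set beside that of 14 pairs of related miRNAs, this one included, with reads of both in every library. The SD of the log2 ratio of miR-26a-5p to miR-26b-5p was 0.13 over 8 libraries, the third lowest. Lower SDs were found for miR-30a-5p to miR-30d-5p (0.06) and for miR-148a-3p to miR-148b-3p (0.11). The median over the 14 pairs was 0.32, and the ratio of miR-101a-3p to miR-101b-3p had an SD of 0.48. The highest, 1.001 for miR-23a-3p to miR-23b-3p, rested on as few as 1 read in a library. Counting noise adds to each SD and is larger for rarer pairs. For the miR-26 pair it alone would give an SD of 0.06 to 0.09.

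**Figure D4:**
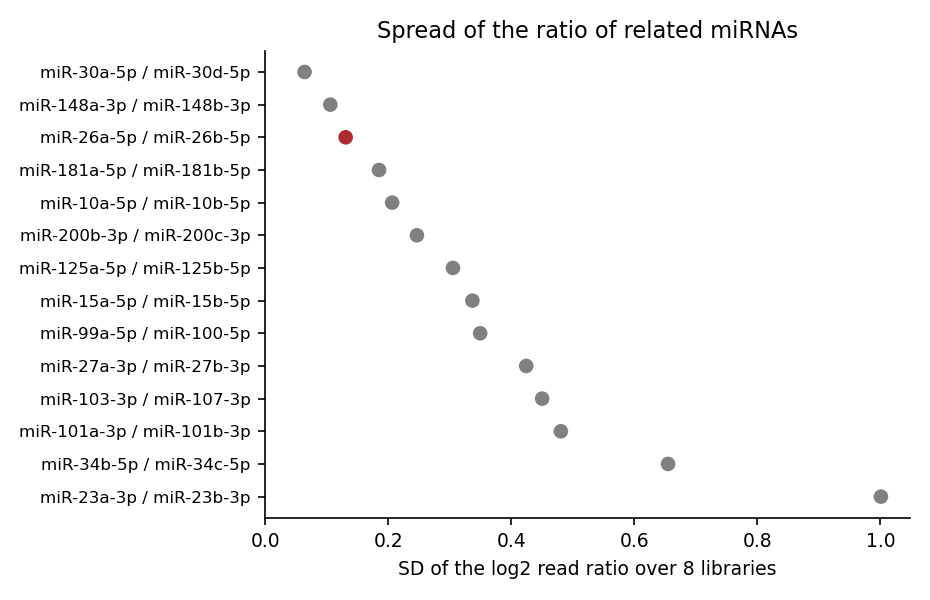
SD over 8 libraries of the log2 read ratio (horizontal axis, from 0) for 14 pairs of related miRNAs, with the miR-26 pair in red. The miR-26 pair lies at 0.13, and the pairs range from 0.06 to 1.001; counting noise was not subtracted.

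The passenger strand miR-26a-2-3p, from the Ctdsp2 locus, was close to undetected. It had 0, 0, 1 and 0 reads in Exposed 1 to 4, and 1, 2, 2 and 1 reads in Trained 1 to 4. Its 7 reads in all were the lowest row total of the table, and no other row had as few, so it ranked last of the 387 by mean level, at 3.42 CPM. miR-26a-5p had 21815 reads in the same libraries. The passenger made up 0.0321% of the miR-26a reads (exact 95% binomial interval 0.0129% to 0.0661%, counting error only). This share counts guide reads of both miR-26a loci, so the share at Mir26a-2 alone could not be computed, and reads of the Mir26a-1 3p arm are not in it.

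Among the 90 hairpin names with both arms listed, the rarer arm held a median of 14.2% of reads, with a range from 0.0518% to 49.9%. Arms were paired by name. Hairpins with a locus number in the name of 1 arm only, as for miR-26a, are therefore not among the 90. None of the 90 had a lower share than miR-26a. Only the 9 whose major arm had at least as many reads as miR-26a-5p could have had one. For the rest the floor of 7 reads fixed the outcome in advance. In 13 of the 90 the rarer arm held under 1%. The table has no row with fewer than 7 reads, so hairpins with a rarer arm below that total do not enter this comparison.

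**Figure D5:**
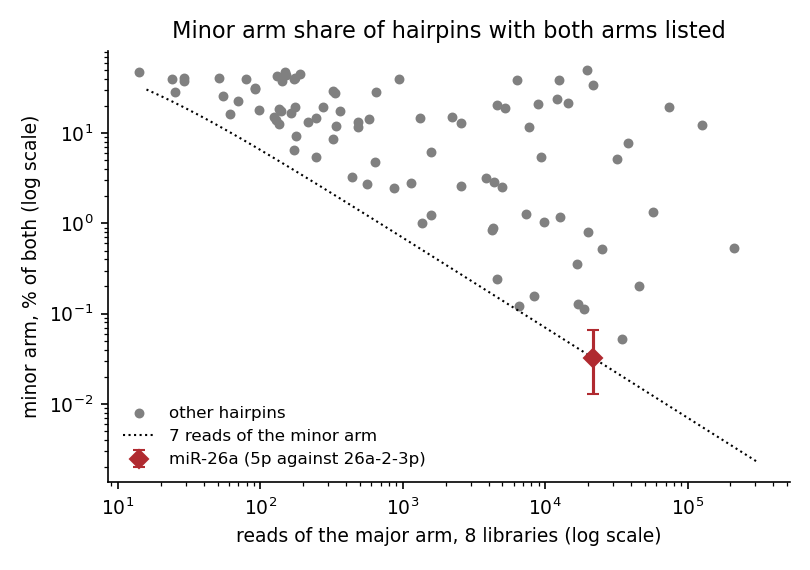
Share of the rarer arm (vertical axis, percent of both arms, log scale) against reads of the major arm over 8 libraries (horizontal axis, log scale) for 90 hairpin names with both arms listed and for miR-26a, whose bar is the exact 95% binomial interval. miR-26a lies lowest, at 0.0321%, and on the dotted line, which marks 7 reads of the rarer arm, the fewest in any row of the table.

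The passenger was compared between the groups by its share of miR-26a reads. The share was 0.0358% in Exposed 3 and 0 in the other Exposed libraries, and 0.0415%, 0.0693%, 0.0454% and 0.0414% in Trained 1 to 4. The groups did not overlap, but Exposed 3, Trained 1 and Trained 4 each rested on 1 read. Their shares differ only through the miR-26a reads they were divided by. The difference was 0.0404 percentage points (two-sided exact permutation p = 0.0286, the smallest that 4 against 4 allows; adjusted 0.0857 over 3 comparisons), so it did not pass. It could not have passed unless another of the 3 comparisons had also reached the smallest p, so this outcome does not bear on a difference. Every row of the table had at least 7 reads in all and reads in at least 4 libraries. The row may thus be listed only through its Trained reads, which the test cannot allow for. Levels in CPM did not overlap between the groups either, as for 8 of all 387 miRNAs with every Trained library above every Exposed library (2.07%). Pooled over libraries, 1 of 9701 miR-26a reads in Exposed and 6 of 12121 in Trained were passenger reads. Scaled by library totals the ratio of Trained to Exposed was 5.32, with an exact 95% counting interval of 0.646 to 245 that includes equality. The row failed the count filter. With no filter, edgeR gave a log2 fold change of 1.97 (SE 0.97, unadjusted p = 0.0673, FDR = 0.998), and 18 of 387 miRNAs (4.65%) had an unadjusted p under 0.05 in that fit, 4 of them higher in Trained (1.03%).

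The authors' deposited table gave miR-26a-2-3p a log2 fold change of 1.01 with an unadjusted p of 0.0241 and an FDR of 0.718. An unadjusted p under 0.05 was given by the authors' deposited table to 20 of 387 miRNAs (5.17%), 8 of them higher in Trained (2.07%), and 0 passed an FDR of 0.05 (0%). For the guides the authors' deposited table gave 0.12 for miR-26a-5p and 0.19 for miR-26b-5p on the log2 scale, each with an FDR of 1.

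The miRNAs whose levels followed each guide most closely were named by the highest Pearson r of log2 CPM over 8 libraries among the 226 tested, as a description. For miR-26a-5p these were let-7g-5p (r = 0.92), miR-30e-5p (0.89), miR-26b-5p (0.89), miR-148b-3p (0.88) and miR-29a-3p (0.88). For miR-26b-5p they were miR-142-5p (0.99), a leukocyte miRNA, let-7d-5p (0.96), let-7i-5p (0.94), miR-186-5p (0.94) and let-7f-5p (0.90), with miR-26a-5p 9th. All of these were highest in Trained 3: let-7g-5p reached 30126 CPM there against 18961 to 24782 CPM elsewhere, and miR-142-5p reached 2921 CPM against 522 to 1202 CPM. Without Trained 3 the r with miR-26b-5p was 0.96 for miR-142-5p, still the highest, and 0.53 for miR-186-5p, then 34th. The r with miR-26a-5p was then 0.79 for let-7g-5p and 0.54 for miR-29a-3p. None of the miRNAs named for miR-26a-5p stayed among its 5 closest. They then ranked from 29th (let-7g-5p) to 71st (miR-26b-5p). Of the 226 miRNAs 66 (29.2%) were highest in Trained 3 and 59 (26.1%) in Exposed 2. By the ratio of Trained 3 to the highest other library, miR-26b-5p ranked 16th (1.52) and miR-26a-5p 23rd (1.35) of the 226.

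miRNAs known to repress Ezh2 had 5 of 6 names listed and tested, the guides included, and 0 passed FDR 0.05 by edgeR. Of the 5 fitted values, 4 were above 0 and 1 below, beside 51.8% above 0 over all tested miRNAs. The median log2 fold change, 0.12, was the value of miR-26a-5p itself, against 0.0049 over all tested miRNAs. Without the guides 2 of 3 values were above 0, with a median of 0.0046, and without Trained 3 the median of the 5 was 0.012 with 3 above 0. miR-101b-3p had group means of 2796 ± 265 CPM (Exposed) and 2826 ± 382 CPM (Trained; SD, n = 4 each; log2 fold change -0.017), and unlike the miR-26 guides it was lowest in Trained 3, at 2283 CPM. miR-101a-3p stood at 515 ± 120 and 528 ± 186 CPM (log2 fold change 0.0046), and the neural miRNA miR-124-3p at 37.7 ± 10.4 and 45.3 ± 6.90 CPM (0.26). Another list held miRNA families that lie in introns of paralogous host genes, the miR-26 guides included. Of its 11 names 7 were listed and 6 tested, with 4 fitted values above 0, 2 below and 0 past FDR 0.05 by edgeR. The median log2 fold change was 0.048. Without the guides 2 values were above 0 and 2 below, with a median of 0.019, and without Trained 3 the median of the 6 was -0.0011.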

How the data were processed

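Per the labels, sperm RNA was extracted with a miRNeasy kit and sequenced as single-end reads on a NextSeq500. The deposited table gives a whole-number count of reads for each mature miRNA. It also holds the authors' group means of the counts (a score here, with no error), log2 fold changes with mean log2 CPM, and p-values with FDR, per the file headers. The submitters' processing notes name edgeR. The trimming, aligner, build and any count filter were not given in the sources used here.

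Groups came from sample titles. Members and lists were chosen with earlier results of these data known. Pairs of replicates had a chi-square of 3.31 to 61.5 per degree of freedom, above sampling noise, so all 8 were kept. Levels are CPM by library total. All miRNAs were tested with edgeR 4.0.16 (R 4.3.3): TMM factors, default filter by group (161 rows left out, 0.258% of counts), robust quasi-likelihood F test, Benjamini-Hochberg adjustment. Standard errors were derived from the log2 fold change, its p and the t distribution. Single values used exact permutation tests (70 assignments, scipy 1.17.1). Likeness used log2 CPM after adding 0.5 counts. Named miRNAs were the members, those of the Ezh2 list and the pairs, the 5 most alike to each guide, the neighbours in level, the most abundant and some markers of other cells. On 10 simulated data sets of 226 miRNAs, 40 of them changed, edgeR called 89.5% at a 4-fold change, 74.0% at a 2-fold change and 0.806% at no change. The simulated miRNAs varied independently, with no library set apart as Trained 3 was. Smaller changes, such as those fitted for the guides, were not simulated. Nor was a lone changed miRNA, for which the adjustment is stricter than with 40 changed. Intervals of counts cover counting error only, since the sources name no molecular identifiers. DESeq2 1.42.0, limma-voom (limma 3.58.1), other scalings and filters, the replicate block and leaving out libraries were alternatives.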

Additional observations from a re-analysis of the deposited data

Results flagged for a closer look

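The summed miR-26 level of Trained 3, 19454 CPM, lay far from the other Trained libraries (11200 to 12590 CPM), with a gap of 0.832 of the group's range, just past Dixon's critical value for 4 samples. For miR-26a-5p and miR-26b-5p taken singly the gap was 0.798 and 0.805, under that value.

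The other values that stood apart in their group were those of miR-26a-2-3p. Its level of 3.92 CPM and its share of 0.0358% of miR-26a reads in Exposed 3 came from 1 read, where the other Exposed libraries had 0. Its share in Trained 2, 0.0693%, came from 2 reads, as did the share in Trained 3. With 0 to 2 reads a library, a single read is enough to set a sample apart, so these values say nothing of an unusual library. For measured levels, chance alone sets a sample apart in about 1 in 20 groups, and 12 groups were examined, 4 of them of these low counts.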

How the results depend on the processing

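The count of miRNAs past FDR 0.05 was 0 in all 18 alternatives. The log2 fold change of miR-26a-5p turned to -0.066 without Trained 3 and to -0.099 without Exposed 2 and Trained 3, and kept its direction in the other 16. That of miR-26b-5p turned to -0.026 without both and kept its direction in the other 17. The summed level turned to -0.045 without Trained 3 and to -0.11 without both. Leaving out 1 library gave -0.066 to 0.22 for miR-26a-5p, 0.012 to 0.31 for miR-26b-5p, 1.63 to 3.61 for miR-26a-2-3p, -0.045 to 0.22 for the summed level, -0.14 to -0.028 for the log2 ratio, 0.0338 to 0.0494 percentage points for the passenger share and 0.44 to 0.92 for Pearson's r between the guides. The 3.61 is against Exposed libraries at 0 and depends on the prior count. Pearson's r was 0.082 without Exposed 2 and Trained 3, and 0.21 without Exposed 1 and Trained 3. The passenger share cannot reach an exact permutation p below 0.0571 with 3 against 4 libraries. Its log2 was not run, since 3 libraries are at 0.

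The labels do not say that a replicate number marks a shared source, so the samples were treated as unpaired, with a replicate block as an alternative. Deviations from group means correlated at 0.68, 0.68 and 0.52 for numbers 2 to 4 but at -0.40 for number 1. Of the 8 libraries, 5 correlated best with their own number. Whether a number marks a shared source was not tested. With the replicate block the log2 fold change was 0.092 for miR-26a-5p, 0.17 for miR-26b-5p and 1.96 for miR-26a-2-3p, the count past FDR 0.05 stayed 0, and 14 miRNAs in place of 10 had an unadjusted p under 0.05.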
